A study of Mus musculus with 13 samples.

Results

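Interferon-stimulated genes were followed in 13 mouse melanomas through 33 probe sets, which measure 31 genes, of a list of 36 among the 22690 probe sets in the deposited table. These 33 are the members described below. The members were chosen by name, from probe set identifiers known to measure genes that interferons induce. Each value is a log ratio to the median of that probe set over the 13 arrays, so a value of 0 is the median tumor, and it was read as log2, although its base is not stated in the sources used here. Levels of different genes therefore could not be compared, and every value below is a deviation of a probe set from its own median.

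The melanomas arose in mice with a transgene for HGF/SF, the growth factor that activates the MET receptor, driven by the metallothionein promoter, on a background of about 90% FVB/N and 10% C57BL/6, after 1 UV exposure at 3.5 days of age. All 13 tumors shared the transgene and the UV exposure. In 6 tumors the genotype label gave a deficiency of ARF, 5 of them heterozygous (tumors 8, 9, 12, 13 and 14) and 1 null (tumor 10). In the other 7 it gave a deficiency of INK4a, 3 heterozygous (tumors 15, 5.2 and 6.2) and 4 null (tumors 1.2, 2.2, 3 and 7.2). ARF and INK4a are the overlapping tumor suppressors of the Cdkn2a locus. The sample titles of the ARF tumors name Ink4a instead, so the groups rest on the genotype labels. How old the mice were at tumor collection, and their sex, was not found in the labels or methods. Tumors are not tied to single mice by the labels, and a p-value therefore covers only the variation among tumors.

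The array medians ran from -0.05 to 0.05. The log ratio of the 3-prime to the 5-prime beta-actin control probe set, a measure of RNA degradation, was taken from the centred values. It is therefore relative to the other arrays and gives no absolute ratio. It ran from -0.54 in INK4a tumor 1.2 to 1.49 in ARF tumor 13. The same ratio for the Gapdh control ran from -0.74 in INK4a tumor 15 to 1.41 in ARF tumor 13. The 2 controls differed in ARF tumor 9 (beta-actin 1.09, Gapdh 0.23), ARF tumor 12 (0.81, 0.38) and INK4a tumor 7.2 (0.94, -0.07). Only the beta-actin ratio was used below. Markers of melanocytes and of immune cells were not analysed here, because no table used here pairs the other probe sets with genes, so the labelled tissue was not checked against them. Tumors were profiled in bulk, where fewer cells of a type and less RNA per cell cannot be told apart.

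Interferons are secreted signals that bind receptors coupled to Janus kinases. Genes that type I interferons induce often carry the interferon-stimulated response element (ISRE) in their promoters, and genes that interferon gamma induces often carry the gamma-activated site (GAS). IRF7 amplifies the type I response and IRF1 carries much of the gamma response, including the immunoproteasome and antigen transport. The members encode proteins that block viruses, tag proteins with ISG15, sense foreign nucleic acids, attack intracellular vacuoles, trim peptides for MHC class I and recruit T cells. In skin these genes can be expressed by the tumor cells and by the leukocytes around them.

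Promoter sequences of 25 of the 31 genes were found in RefSeq windows of assembly GRCm38.p6, which run from 250 bases before to 50 bases after a start site. The other genes were Usp18, Mx1, Iigp1, Rtp4, Ifi204 and Zbp1. The ISRE was searched as GAAANNGAAA on both strands, and stood in a window of 14 of the 25 genes (56%), against 3.99% of all genes in the table. The GAS was searched as TTCNNNGAA, which reads the same on both strands, and stood in 7 of the 25 (28%), against 9.55% of all genes. Both motifs stood in 4 genes (Oas1a, Bst2, Igtp and Tgtp1). Neither stood in 8 genes (Irf7, Oasl2, Ifi44, Psmb9, Tap1, Ifi47, Lgals3bp and Cxcl9). A match is a description of the letters in the window and not of a bound site.

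The following stretches, read 5′ to 3′ on the strand of the gene, are chosen examples from genes that carry patterns described below. Other genes with such patterns had other motifs: Ifit2 held a GAS alone, Gbp2 an ISRE alone, and Oasl2 and Cxcl9 neither. Whether motif type follows the expression pattern was not tested. Capitals mark the motif letters, with a reverse-strand ISRE appearing as its complement, and overlapping matches run together. Ifit1, Ifit3 and Isg15 hold ISRE matches alone.
Ifit1, chr19:34640770-34640828, plus strand: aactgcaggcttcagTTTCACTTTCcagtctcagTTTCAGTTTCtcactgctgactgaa
Ifit3, chr19:34583358-34583431, plus strand: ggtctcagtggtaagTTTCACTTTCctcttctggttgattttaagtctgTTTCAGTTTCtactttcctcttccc
Isg15, chr4:156200860-156200911, minus strand: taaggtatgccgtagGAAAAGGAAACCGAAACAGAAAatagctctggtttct

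Ifit1 and Ifit3 each held 2 ISRE matches and Isg15 held 3, which overlap. The next genes held both kinds of match.
Oas1a, chr5:120907515-120907638, minus strand: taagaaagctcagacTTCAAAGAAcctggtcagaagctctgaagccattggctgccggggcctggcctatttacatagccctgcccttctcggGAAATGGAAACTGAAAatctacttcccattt
Bst2, chr8:71537572-71537623, minus strand: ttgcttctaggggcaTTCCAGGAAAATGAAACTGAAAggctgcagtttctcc
Igtp, chr11:58199496-58199546, plus strand: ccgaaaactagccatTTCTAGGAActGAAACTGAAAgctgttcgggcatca
Tgtp1, chr11:48992299-48992349, minus strand: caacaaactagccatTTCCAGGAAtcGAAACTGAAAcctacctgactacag

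In Bst2 the GAS overlapped an ISRE. The stretches of Igtp and Tgtp1, both immunity-related GTPases, matched at 34 of 51 bases, with the GAS and the ISRE in the same spacing. The stretches were cut around the motifs, so the fixed motif letters are among the matching bases by construction. The last pair held a GAS match alone.
Psmb8, chr17:34198083-34198121, plus strand: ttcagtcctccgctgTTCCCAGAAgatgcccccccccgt
Irf1, chr11:53769909-53769947, plus strand: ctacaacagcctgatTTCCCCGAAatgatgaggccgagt

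The windows of Psmb9 and Tap1 overlapped by 275 bases on chromosome 17, with start sites 226 bases apart, and neither held a match.

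The members varied more from tumor to tumor than most probe sets. Their standard deviation (SD) over the 13 tumors had a median of 0.64 and ran from 0.15 for Zbp1, a sensor of Z-form nucleic acid, to 1.17 for Usp18, the protease that removes ISG15 from proteins. The median over the 22626 probe sets tested, which leave out 64 control probe sets, was 0.27. Of the 33 members, 15 (45.5%) lay above the 90th percentile of 0.73, where 10% of all probe sets lay, and 2 lay below the median of all. Without tumor 14 the medians were 0.55 for the members and 0.28 for all.

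**Figure D1:**
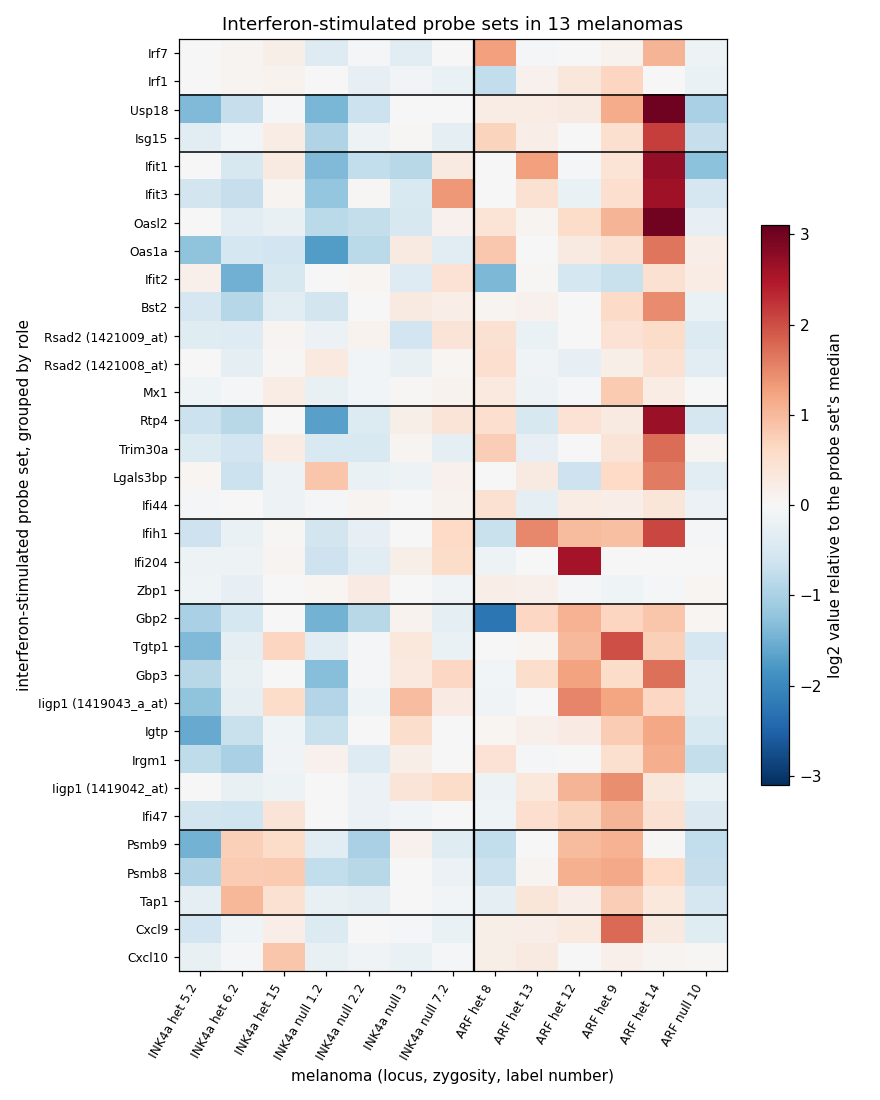
Log2 value of each of the 33 probe sets (rows, grouped by role) in each of the 13 melanomas (columns, INK4a-deficient left of the vertical line and ARF-deficient right of it), relative to the probe set's median. ARF tumor 14 was highest for 16 of the 33 members.

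Several antiviral effectors and the ISG15 pair were highest in ARF tumor 14. This tumor was the highest of the 13 for 16 members, had 15 members more than 1 above their median, and had a member median of 0.74. Over all 22626 probe sets, 0.813% were more than 1 above their median in this tumor, the lowest such share of the 13 and shared with INK4a tumor 2.2. Probe sets more than 1 above every other tumor numbered 10 (0.0442%) in tumor 14, and 6 of these were members: Usp18, Rtp4, Oasl2, Isg15, Ifit3 and Ifit1. In other tumors such members were Ifi204 in tumor 12 and Cxcl9 in tumor 9 alone, although up to 210 probe sets reached that mark in 1 tumor (INK4a tumor 6.2).

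Usp18 (probe set 1418191_at) stood at 3.01 in tumor 14, 1.15 in tumor 9, 0.27 in 12, 0.24 in 13, 0.22 in 8 and -1.0 in 10. Among INK4a tumors its values were -0.04 in tumor 15, -1.37 in 5.2, -0.70 in 6.2, -1.43 in 1.2, -0.65 in 2.2, 0.00 in 3 and 0.02 in 7.2. Tumor 14 was far above all others and the 3 lowest were 1.2, 5.2 and ARF tumor 10.

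Isg15 (1431591_s_at), the ubiquitin-like modifier itself, followed Usp18 (r = 0.93 over the 13 tumors), with 2.14 in tumor 14, a next highest value of 0.69 in tumor 8 and a lowest of -0.92 in tumor 1.2. Ifit1, which binds foreign RNA caps, reached 2.72 in tumor 14 and 1.26 in tumor 13, and was lowest in tumors 1.2 (-1.36) and 10 (-1.28). Ifit3, its partner, reached 2.63 in tumor 14 and 1.34 in INK4a tumor 7.2, the highest INK4a value of the set. Rtp4, a receptor transporter that interferons induce, reached 2.67 in tumor 14 and no more than 0.53 elsewhere. These genes thus shared 1 high tumor, and the tumor that came next was 8 for Isg15 and Rtp4, 9 for Usp18, 13 for Ifit1 and 7.2 for Ifit3.

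Not every antiviral gene followed. Ifit2 stood at 0.47 in tumor 14 and at 0.45 in tumor 7.2, with lows of -1.48 in tumor 6.2 and -1.40 in tumor 8. Mx1 was highest in tumor 9 at 0.82 and stood at 0.24 in tumor 14. The 2 probe sets of Rsad2 (viperin) stayed between -0.59 and 0.58 in all tumors. Over the 9 antiviral effector probe sets, the median in tumor 14 was 1.47, against 0.47 in tumor 9, 0.30 in tumor 8 and -0.04 in tumor 12.

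**Figure D2:**
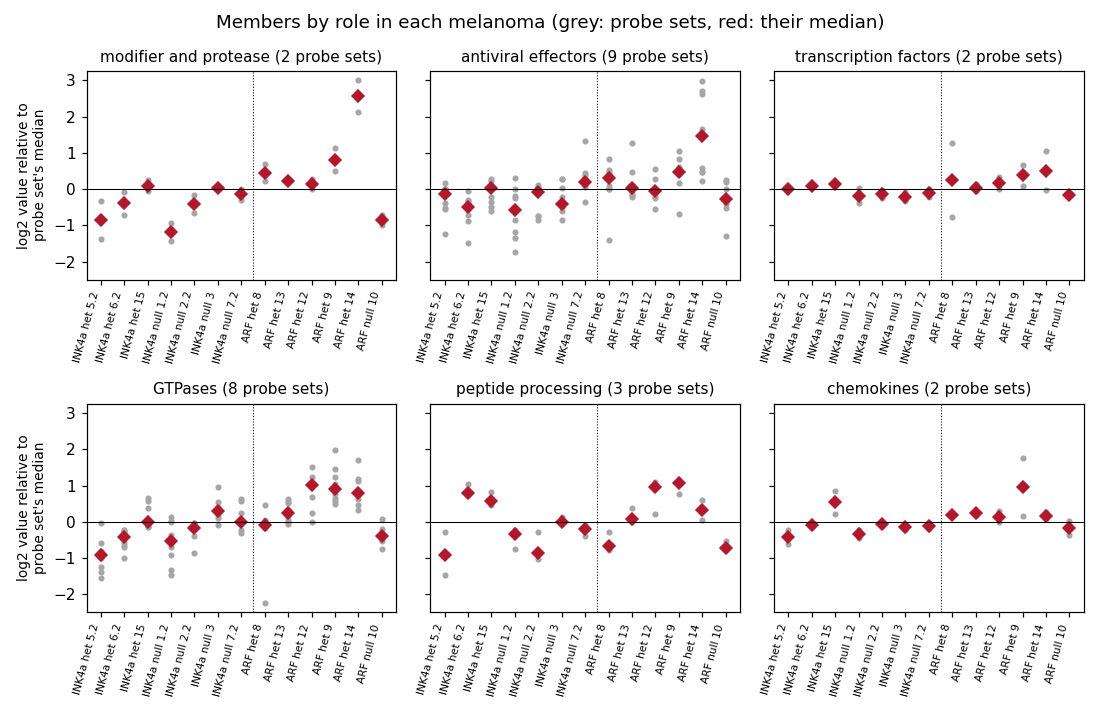
Log2 value relative to the probe set's median (vertical axis) in each melanoma (horizontal axis, INK4a-deficient left of the dotted line), for 6 roles. Grey points are probe sets and red diamonds their median; tumor 14 led the antiviral effectors at 1.47, while tumor 9 led peptide processing at 1.07 and chemokines at 0.96.

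The interferon-inducible GTPases were high in tumors 9 and 12 as well as in tumor 14, and the peptide-processing genes were highest in other tumors than 14. Over the 8 GTPase probe sets the median was 1.03 in ARF tumor 12, 0.91 in tumor 9 and 0.80 in tumor 14, and the lowest was -0.93 in INK4a tumor 5.2. These proteins (the Irg and Gbp families) attack the vacuoles of intracellular pathogens. Tgtp1 stood at 1.99 in tumor 9, 1.0 in 12 and 0.74 in 14, with INK4a values from -1.37 in tumor 5.2 to 0.67 in tumor 15. Gbp2 was highest in tumor 12 (1.08) and lowest in tumor 8 (-2.24), while its INK4a values ran from -1.47 to 0.11. Gbp3 reached 1.70 in tumor 14 and 1.25 in tumor 12. The GTPases were thus high in 3 ARF tumors, where the antiviral effectors were high in 1.

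Not all GTPases had the same order. The 2 probe sets of Iigp1 were highest in tumors 9 (1.45) and 12 (1.51), and Ifi47 was highest in tumor 9 (1.04). Igtp and Irgm1 were highest in tumor 14, at 1.19 and 1.13, and stood at 0.25 and 0.01 in tumor 12. Igtp and Tgtp1, whose promoter stretches hold both motifs in the same spacing, therefore differed in their highest tumor.

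Psmb8 and Psmb9, subunits of the immunoproteasome, and Tap1, which carries peptides into the endoplasmic reticulum, moved together (r of 0.83 to 0.95 between pairs). Their median was 1.07 in tumor 9, 0.97 in tumor 12, 0.79 in INK4a tumor 6.2 and 0.58 in INK4a tumor 15, but 0.33 in tumor 14. The lowest were INK4a tumors 5.2 (-0.92) and 2.2 (-0.87) and ARF tumor 10 (-0.71). Tap1 was highest in INK4a tumor 6.2, at 1.04, where the antiviral effectors had a median of -0.50. High peptide-processing values were thus found in tumors of both genotypes.

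Cxcl9, a chemokine of interferon gamma that draws T cells through CXCR3, stood at 1.76 in tumor 9 and no higher than 0.29 in the others. Cxcl10, which binds the same receptor, was highest in INK4a tumor 15 at 0.87, against at most 0.27 elsewhere. The pair correlated at r = 0.37, and each had a single high tumor. Ifi204, a DNA sensor of the Ifi200 family, stood at 2.58 in tumor 12 and between -0.64 and 0.56 in the other tumors. Tumor 9 was the highest for 8 members and among the 3 highest for 23, and tumor 12 was the highest for 3 and among the 3 highest for 16.

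Other members were high in tumor 14 alone or varied little. Lgals3bp, a secreted glycoprotein that binds galectin-3, stood at 1.62 in tumor 14 and next at 0.86 in INK4a tumor 1.2, the tumor in which 12 members were lowest. Ifi44 stayed between -0.30 and 0.47. Zbp1 stayed between -0.26 and 0.25 and had no high tumor. The other sensors, Ifi204 and Ifih1, were both high in tumor 12, at 2.58 and 0.97. Ifih1 was highest in tumor 14 (2.07), where Ifi204 stood at its median.

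Among the regulators, Irf7 stood at 1.27 in ARF tumor 8, 1.04 in 14, 0.10 in 9, 0.00 in 12, -0.05 in 13 and -0.15 in 10, and its INK4a values ran from -0.39 in tumor 1.2 to 0.17 in tumor 15. Irf1 stood at 0.66 in tumor 9, 0.34 in 12, 0.14 in 13, -0.02 in 14, -0.20 in 10 and -0.76 in 8, and its INK4a values ran from -0.24 in tumor 2.2 to 0.12 in tumor 15. Tumor 8 was thus the highest for Irf7 and the lowest for Irf1, and Irf1 was near its median in tumor 14.

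The lowest values were more evenly shared. INK4a tumor 1.2 was lowest for 12 members, tumor 6.2 for 8 and tumor 5.2 for 6, and their member medians were -0.43, -0.31 and -0.42. ARF tumor 10, the only ARF null tumor, was lowest for 2 members but among the 3 lowest for 17, with a member median of -0.34. The beta-actin ratio was -0.54, -0.46 and -0.37 in tumors 1.2, 5.2 and 6.2, -0.14 in tumor 10 and -0.04 in tumor 14, but 1.09 in tumor 9, 0.81 in tumor 12 and 1.49 in tumor 13. Tumor 13 had the highest ratio and a member median of 0.13. The ratio was also low in tumors 15 (-0.39) and 8 (-0.36), with member medians of 0.07 and 0.06. It was high in tumor 7.2 (0.94), with a member median of 0.02. In tumors 2.2 and 3 it was 0.14 and 0.38, with member medians of -0.18 and 0.

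The study's design asks how ARF-deficient melanomas differ from INK4a-deficient ones. Of the 33 members, 32 had a higher mean in the 6 ARF tumors than in the 7 INK4a tumors, against 52.4% of all probe sets, and the median difference was 0.50 on the log2 scale, against 0.01 over all. In limma with Benjamini-Hochberg adjustment over all probe sets, 0 members passed an adjusted p of 0.05, and 0 of all probe sets did (0%). At an unadjusted p under 0.05 there were 7 members (21.2%), against 4.93% of all probe sets. All 7 were higher in ARF tumors, where 2.24% of all probe sets were higher, and 0 were lower, where 2.69% were. A Mann-Whitney test, which the study's methods name, was run in its exact form. It gave 5 members (15.2%) at an unadjusted p under 0.05, against 3.46% of all. The exact permutation test of the means gave 6 (18.2%), against 4.72%. Both counts held a member outside the limma 7, Cxcl10 in the Mann-Whitney test and Cxcl9 in the permutation test. Groups did not overlap for 0 members, against 0.11% of all.

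The largest difference was that of Oas1a (1424775_at), an oligoadenylate synthetase that activates RNase L. In the 6 ARF tumors its lowest value was 0.00, its median 0.38 and its highest 1.67, and in the 7 INK4a tumors these were -1.73, -0.59 and 0.28. All 6 ARF tumors lay above the INK4a median, and the groups overlapped through INK4a tumor 3. The difference was 1.29 (SE 0.33, n = 6 and 7), with an unadjusted limma p of 0.00162, an adjusted limma p of 0.891 and an exact permutation p of 0.00291, two-sided. Oas1a is the only member on a list of 122 probe sets that the authors selected from these same arrays, which is not independent evidence.

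Oasl2, a related protein with ubiquitin-like repeats, ran from -0.26 through a median of 0.49 to 2.98 in ARF tumors and from -0.84 through -0.32 to 0.14 in INK4a tumors. All 6 ARF tumors lay above the INK4a median. The difference was 1.16 (SE 0.43), with an unadjusted limma p of 0.0174 and an adjusted limma p of 0.891. Without tumor 14 the difference was 0.72.

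Usp18 ran from -1.0 through 0.25 to 3.01 in ARF tumors and from -1.43 through -0.65 to 0.02 in INK4a tumors. The groups overlapped through ARF tumor 10, and 5 of 6 ARF tumors lay above the INK4a median. The difference was 1.24 (SE 0.52), with an unadjusted limma p of 0.0340 and an adjusted limma p of 0.891. Without tumor 14 it was 0.77, with an unadjusted limma p of 0.0601.

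Trim30a, a ubiquitin ligase family member that restrains inflammatory signals in mice, ran from -0.25 through 0.24 to 1.74 in ARF tumors and from -0.60 through -0.42 to 0.24 in INK4a tumors, a difference of 0.74 (SE 0.28). Ifih1 (MDA5), a sensor of long double-stranded RNA, ran from -0.70 through 0.96 to 2.07 and from -0.65 through -0.21 to 0.61, a difference of 0.94 (SE 0.39). Gbp3 ran from -0.33 through 0.56 to 1.70 and from -1.32 through -0.03 to 0.64, a difference of 0.82 (SE 0.37). For Ifih1 and Gbp3 the ARF values covered much of the INK4a range, while for Trim30a all 6 ARF tumors lay above the INK4a median. The exact Mann-Whitney p was 0.0245 for Trim30a, 0.138 for Ifih1 and 0.181 for Gbp3. In all 3 the adjusted limma p was 0.891. The seventh member was Bst2 (tetherin, which holds budding virions at the cell surface), with a difference of 0.60 (SE 0.27). Without tumor 14 the differences were 0.48 for Trim30a and 0.38 for Bst2.

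**Figure D3:**
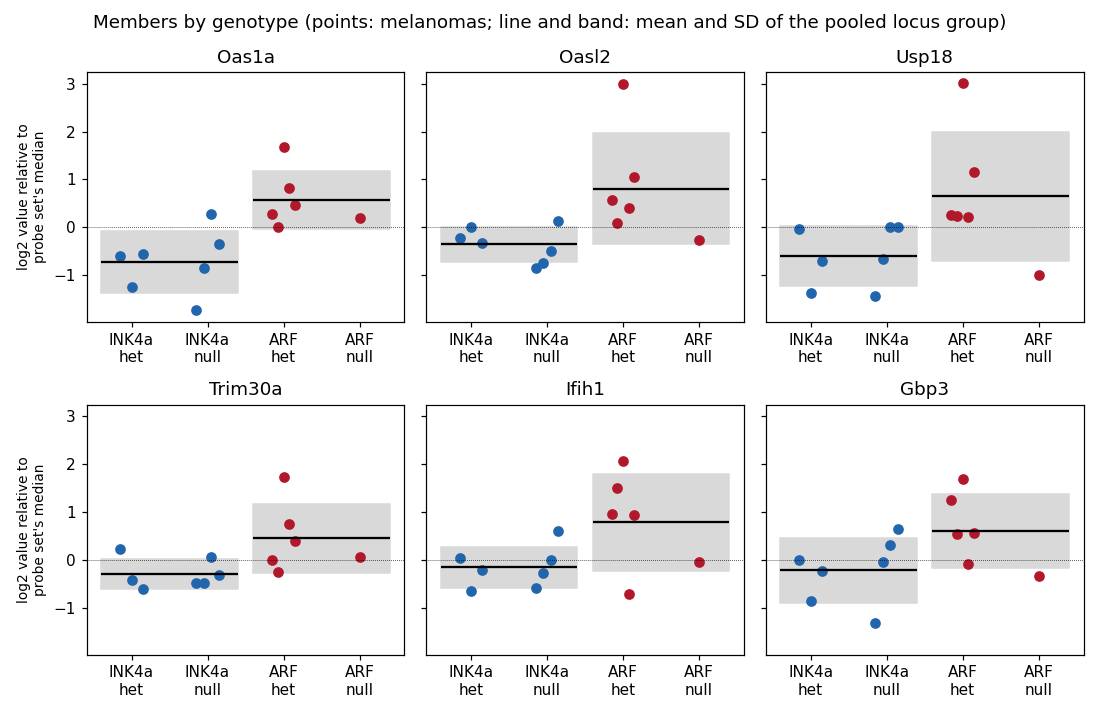
Log2 value relative to the probe set's median (vertical axis) of 6 members in each melanoma (points) by locus and zygosity (horizontal axis). Lines and bands are the mean and SD of the 6 ARF-deficient and the 7 INK4a-deficient tumors; the groups overlap in every panel.

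By role, all 8 GTPase probe sets were positive (median difference 0.65, 1 at an unadjusted p under 0.05), as were 8 of 9 antiviral effectors (0.60, 3), both of the modifier and protease pair (0.96, 1), all 3 sensors (0.48, 1) and all 3 peptide-processing probe sets (0.34, 0). Of the remaining groups, the 4 other genes (Rtp4, Trim30a, Lgals3bp and Ifi44) were positive with a median of 0.51, and both chemokines with 0.34. The transcription factors had the smallest median, 0.26, with 0 at that threshold. Irf7 differed by 0.44 (SE 0.23; 0.26 without tumor 8) and Irf1 by 0.08 (-0.05 without tumor 9). Cxcl9 differed by 0.56 (SE 0.27, and 0.29 without tumor 9), with an unadjusted limma p of 0.0589 and an exact permutation p of 0.0379. Cxcl10 differed by 0.12, with an unadjusted limma p of 0.461 and an exact Mann-Whitney p of 0.0350. All 6 ARF tumors lay above the INK4a median of Cxcl10. Without INK4a tumor 15, its highest tumor, Cxcl10 differed by 0.27 (unadjusted limma p 0.00334). Among members of large spread, Ifit1 differed by 0.93 (SE 0.53, unadjusted limma p 0.104), Rtp4 by 0.92 (SE 0.49, p 0.0820), Gbp2 by 0.75 (SE 0.48, p 0.140) and Psmb9 by 0.34. Single tumors moved these values. Without tumor 14 Ifit1 differed by 0.48 and Rtp4 by 0.49, and without INK4a tumor 5.2 Psmb9 differed by 0.14. Without tumor 8, its lowest tumor, Gbp2 differed by 1.24 (unadjusted limma p 0.000699). Tumor 15 for Cxcl10 and tumor 8 for Gbp2 were picked for their extreme values, which in part sets the p-values without them. No member passed adjustment in either of these fits.

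**Figure D4:**
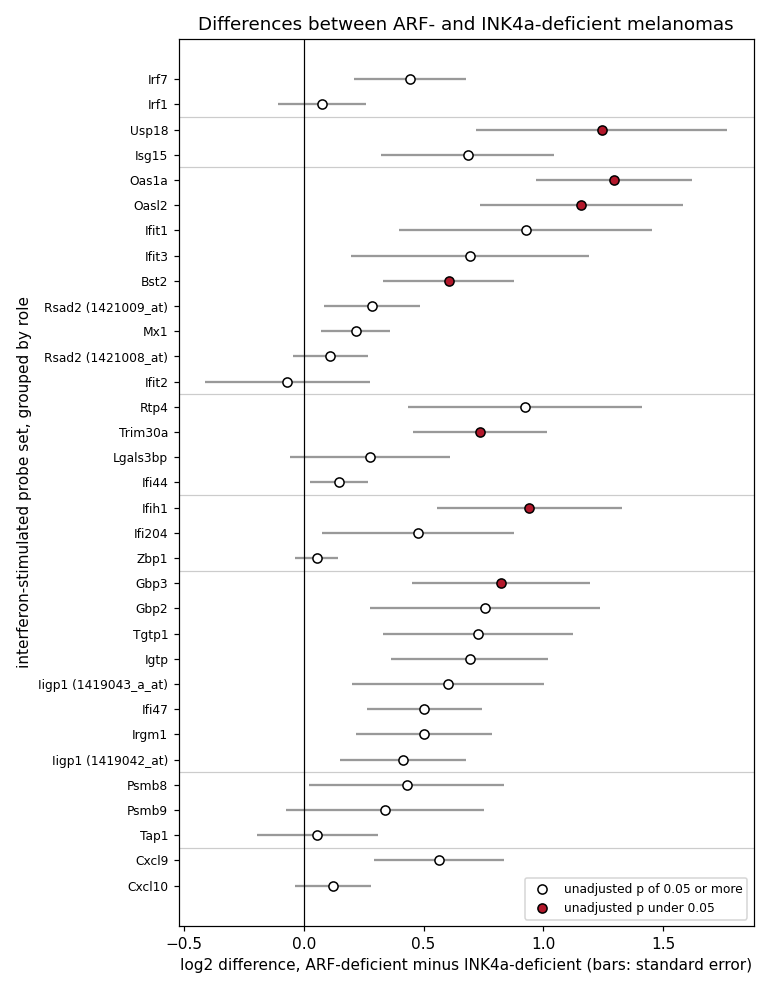
Difference in mean log2 value between the 6 ARF-deficient and the 7 INK4a-deficient melanomas (horizontal axis, bars are the standard error) for the 33 probe sets grouped by role. Of the 33 differences, 32 are positive; filled points are the 7 members at an unadjusted limma p under 0.05, of which 0 passed adjustment.

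Zygosity was unevenly spread, with 5 of 6 ARF tumors but 3 of 7 INK4a tumors heterozygous. The count of 7 changed with the tumors in the fit and with zygosity as a covariate. With zygosity as a covariate it was 1 (3.03%, against 7.55% of all probe sets), Oas1a. The other 6 of the 7 then had unadjusted limma p-values from 0.0515 for Bst2 to 0.102 for Gbp3. In that fit 31 of the 33 differences were positive, with a median of 0.43. In heterozygous tumors only the count was 7 (21.2%), against 12.3% of all, and 31 of the 33 differences were positive, with a median of 0.73. It was 3 (9.09%) without ARF tumor 14, against 5.31% of all, without ARF tumor 9, against 3.6%, without INK4a tumor 5.2, against 3.58%, and without INK4a tumor 1.2, against 3.91%. It was 4 (12.1%) without INK4a tumor 6.2, against 4.58%, and 16 (48.5%) without ARF tumor 10, against 6.02%. With each of the 13 tumors left out in turn, Oas1a, Oasl2 and Trim30a were at that threshold in all 13 fits, Usp18 and Ifih1 in 7, Bst2 in 6 and Gbp3 in 4. With tumors of decimal label numbers left out (5.2, 6.2, 1.2, 2.2 and 7.2, all INK4a and of unstated meaning), 28 of the 33 members were higher in ARF tumors, with a median difference of 0.28 and 0 at that threshold, against 2.94% of all. These endings and the genotype cannot be told apart for those 5 tumors. With the beta-actin ratio added to the fit, 30 of 33 were positive and 4 were at that threshold (12.1%, against 2.93% of all), with a median of 0.34.

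Within the INK4a-deficient tumors, the 4 null were compared with the 3 heterozygous. The limma fit also held the ARF tumors, so its SEs and p-values include their spread. With the INK4a arrays alone, 1 member (3.03%, against 12.8% of all probe sets) was at an unadjusted limma p under 0.05. Of the 33 members, 21 were higher in the null tumors (63.6%, against 58.1% of all probe sets), with a median difference of 0.13 against 0.04 over all. No member passed an adjusted limma p of 0.05 (0.128% of all did), and 0 were at an unadjusted p under 0.05, against 14.1% of all, 9.54% higher and 4.54% lower. By the exact permutation test of the means 0 members were at that threshold, against 6.55% of all, and by the exact Mann-Whitney test 0, against 0.301%, which 4 against 3 tumors can reach only through ties. Groups did not overlap for 0 members, against 11.2% of all. The GTPases had a median of 0.30, with 7 of 8 positive, and the peptide-processing probe sets a median of -0.56, with 0 of 3 positive.

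Igtp, an immunity-related GTPase, stood at -0.14, -1.55 and -0.70 in the heterozygous tumors 15, 5.2 and 6.2 and at -0.68, -0.02, 0.54 and 0.00 in the null tumors 1.2, 2.2, 3 and 7.2. Null tumors were higher on average and overlapped the heterozygous ones, a difference of 0.76 (SE 0.41, adjusted limma p 0.455). Tap1 stood at 0.47, -0.28 and 1.04 in the same heterozygous tumors and at -0.22, -0.29, 0.00 and -0.09 in the null ones. Its difference was -0.56 (SE 0.32, adjusted limma p 0.483), with heterozygous tumor 5.2 as low as the null tumors. Without tumor 5.2 the differences were 0.38 for Igtp and -0.90 for Tap1, and without tumor 6.2 that of Tap1 was -0.24. With the arrays weighted by their agreement with the fit, 4 members (12.1%, against 29.4% of all probe sets) were at an unadjusted p under 0.05, all lower, and Cxcl10 passed the adjusted threshold, as did 3149 of the 22626. Without tumor 5.2, 3 members (9.09%, against 18.8% of all) were at that threshold and the median difference was -0.09.

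Correlations were taken over the 13 tumors with Irf7 and with Irf1, and no adjusted permutation p over all probe sets was under 0.05 for either. With Irf7, 11 of the other 32 members had a positive r at an unadjusted permutation p under 0.05 (34.4%, against 1.88% of all probe sets), and 0 had a negative one, against 1.33%. The median r was 0.36, and 26 of the 32 were above 0, against 50.7% of all. Isg15 was highest, at r = 0.79 (permutation p 0.00273) and rho = 0.73 (permutation p 0.00598), with an adjusted p of 1.0 for r. Without tumors 8 and 14, the farthest from the median of Irf7, its r was 0.62. Among the 11 members, r then ran from -0.09 for 1 probe set of Rsad2 (0.69 before) to 0.63 for Ifit1, with 0.16 for Ifi44 (0.74 before), 0.20 for Trim30a (0.78) and 0.22 for Oas1a (0.67). Over the 32 members the median r was then 0.33.

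With Irf1, the members of highest r were other genes. Psmb8 had r = 0.70 (permutation p 0.00283) and rho = 0.70 (permutation p 0.0102), with an adjusted p of 0.233 for r, and its r without tumors 8 and 9 was 0.70. Gbp2 and Psmb9 also had r = 0.70, Iigp1 (1 of its 2 probe sets) 0.68, Tap1 0.64, Ifi47 0.62 and Tgtp1 0.56. Without tumors 8 and 9 these were 0.43 for Gbp2, 0.69 for Psmb9, 0.43 for Iigp1, 0.57 for Tap1, 0.54 for Ifi47 and 0.43 for Tgtp1. These 7 of 32 (21.9%, against 5.78% of all) were positive at an unadjusted permutation p under 0.05, and 0 were negative, against 7.72%. Of the 32, 24 had an r above 0, against 38.4% of all. Within INK4a tumors alone, r with Irf1 was 0.55 for Psmb8 and 0.00 for Gbp2, and within ARF tumors it was 0.86 and 0.85. The difference between these groups was not tested.

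**Figure D5:**
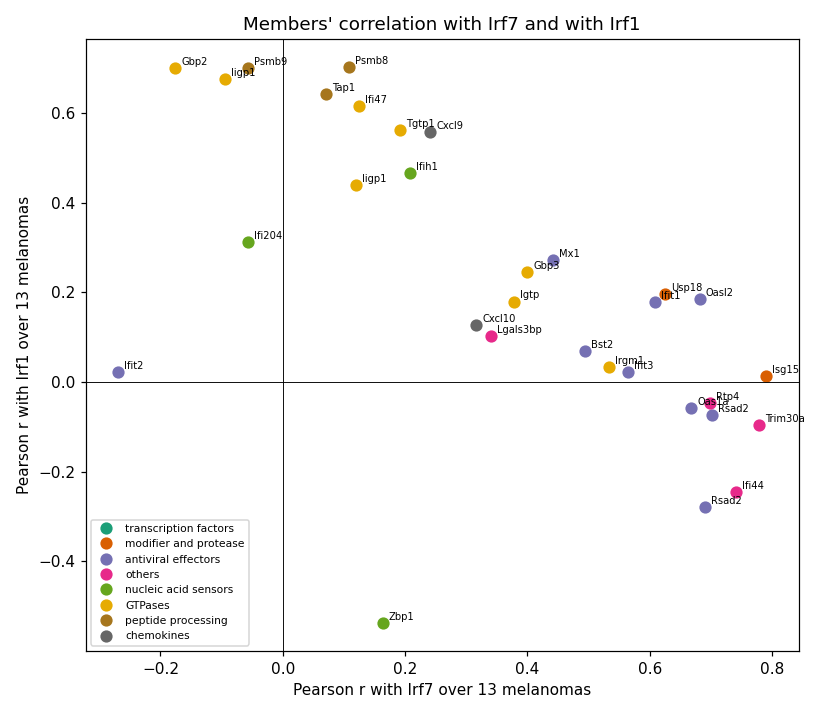
Pearson r of each member with Irf7 (horizontal axis) and with Irf1 (vertical axis) over the 13 melanomas, coloured by role, with 1 point per probe set. Isg15 lies at 0.79 with Irf7, and Psmb8 at 0.70 with Irf1.

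Between probe sets of different members (526 pairs), the median r was 0.45 and 467 pairs were above 0. The median was 0.86 within peptide processing, 0.69 within the GTPases and 0.52 within the antiviral effectors. Between these roles it was 0.22 for antiviral effectors with peptide processing, 0.49 for antiviral effectors with GTPases and 0.54 for GTPases with peptide processing. The pair of Rsad2 probe sets correlated at 0.73 and the pair of Iigp1 at 0.73. All of these points share the same 13 arrays.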

How the data were processed

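RNA from 13 melanomas was hybridised to Affymetrix mouse arrays. The authors extracted RNA with TRIzol and processed the scans in GeneSpringGX. The deposited log2 values, whose base the sources used here do not state, are centred on the median of each probe set, with no level and no detection call. A second deposited table holds a signed score per tumor, of unstated scale, for probe sets that the authors selected by a Mann-Whitney p and a minimum fold change. It was used only for its identifiers.

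The 64 control probe sets were left out and limma 3.58.1 (R 4.3.3), without a variance trend because centred values carry no level, was fitted to 22626 probe sets with Benjamini-Hochberg adjustment. ARF-deficient and INK4a-deficient tumors were compared in a fit of 2 groups, and INK4a null and heterozygous tumors in a fit of 3 groups. Exact tests enumerated all assignments, and correlations used 100000 permutations, adjusted over all probe sets. Scripts were tested on simulated data. Precision is limited by how many arrays there are.

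Genes given with their values were Irf7, Irf1, Cxcl9, Cxcl10, the 3 members of largest SD, the member of largest SD in each role and the 6 members of lowest unadjusted p; all others were named after their values were seen. Gene names of the members came with the list, of which 3 probe sets are not reported here. Members and lists were chosen with earlier results of these data known. Pathway and cell marker lists were not analysed here. Alternatives were other normalizations, covariates, tests and subsets of tumors; the beta-actin covariate was chosen after seeing the data.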

Additional observations from a re-analysis of the deposited data

Results flagged for a closer look

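Of 66 groups of 6 or 7 tumors looked at (33 members in each locus group), 6 held a tumor whose gap to the nearest other was unusually large for the range of the group, where chance flags about 1 in 20 groups, or 3.3. The groups reuse the same tumors for members that correlate with each other, so an excess over chance cannot be read from these counts. In ARF tumor 14, Ifit3 stood at 2.63 (next 0.52) and Rtp4 at 2.67 (next 0.53). In ARF tumor 12, Ifi204 stood at 2.58 (next 0.02). In ARF tumor 9, Cxcl9 stood at 1.76 (next 0.29). Gbp2 was far below the others in ARF tumor 8, at -2.24 (next 0.07). In INK4a tumor 15, Cxcl10 stood at 0.87 (next -0.03).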

How the results depend on the processing

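Between ARF- and INK4a-deficient tumors, the count of members at an unadjusted p under 0.05 (7) was 4 after quantile normalization, 1 with zygosity as a covariate, 0 without tumors of decimal label numbers, 4 with the beta-actin ratio in the fit, and 3 to 16 with 1 tumor left out; no member passed adjustment in any of these. The median difference (0.50) was 0.38 to 0.69 with 1 tumor left out, and 33 of 33 differences were positive after quantile normalization. Between INK4a null and heterozygous tumors, the count (0) was 4 with array weights, 1 with the INK4a arrays alone and 0 to 3 with 1 tumor left out; 1 member passed adjustment with array weights, and the median (0.13) became -0.18 with array weights and -0.088 to 0.24 with 1 tumor left out. Under 1 or more alternatives, 7 of the 33 differences between ARF and INK4a tumors changed sign (Cxcl10, Ifit2, Irf1, Psmb8, Psmb9, Tap1 and 1 probe set of Iigp1), as did 15 of the 33 between INK4a null and heterozygous tumors. Ifit2 (-0.069) became 0.098 after quantile normalization; Irf1 ran from -0.051 to 0.23 with 1 tumor left out; Irf1 became -0.015 with zygosity and -0.042 with the beta-actin ratio; Psmb9 became -0.26 and Cxcl10 -0.20 without decimal label numbers; and Cxcl10 became -0.063 in heterozygous tumors only. The median spread of the members (0.64) was 0.40 as a median absolute deviation, against 0.15 over all. The cause was not tested. No paired analysis was possible because tumor numbers are not shared between the groups.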
